A study of Mus musculus with 6 samples.

Results

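The NRF2 antioxidant response genes were followed in quadriceps muscle of mice 3 weeks after loss of *Dnm1l*, the gene of the mitochondrial fission GTPase Drp1. They were chosen by gene symbol: *Nfe2l2* (NRF2), its inhibitor *Keap1*, the target genes *Nqo1*, *Hmox1*, *Srxn1*, *Txnrd1*, *Gclc* and *Gclm*, and the superoxide dismutases *Sod1* and *Sod2*. All 10 were found among the 27179 genes counted, and all 10 passed the filter on low counts that left 16483 genes to test. RNA from 3 control mice (libraries B, C and D, genotype Control f/f) and 3 miDrp1KO mice (libraries A, E and F) was sequenced. The miDrp1KO mice carried floxed *Drp1* alleles and HSA-MerCreMer, a tamoxifen-activated Cre driven by the human skeletal actin promoter, so the recombinase acted in muscle fibres while other cells of the tissue kept the gene. Control mice were flox/+ or flox/flox per the methods of the study, the floxed line had been backcrossed to C57BL/6J, and both groups received tamoxifen at 3 months of age. All 6 mice ate normal chow per the labels. The methods give a 6-hour fast before study for male mice on that diet and state that later experiments used males, but neither they nor the labels give the sex or fasting of the sequenced mice.

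NRF2 is a transcription factor that KEAP1 holds in the cytosol and hands to a CUL3 ubiquitin ligase for degradation. Oxidants and electrophiles modify cysteines of KEAP1, after which NRF2 accumulates, pairs with a small MAF protein and binds antioxidant response elements near genes for glutathione synthesis, thioredoxin reduction, quinone reduction and heme breakdown. The pathway is regulated largely at the level of NRF2 protein, which RNA counts do not measure. *Sod1* and *Sod2*, which encode the cytosolic and the mitochondrial enzyme that turn superoxide into hydrogen peroxide, are less strictly tied to NRF2 than the other targets.

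The promoter windows of these genes are shown here because NRF2 acts through the antioxidant response element. RefSeq promoter windows on GRCm38.p6, running from 250 bases before to 50 bases after a gene start, matched 8 of the 10 genes, all but *Hmox1* and *Gclc*. The core of the element, TGACNNNGC, was searched on both strands and was found once in each of 5 of the 8 genes. Over all 27025 genes in the same windows, 14.0% held this core, as did 20.8% of 120 other redox genes listed further on. Each match is printed in its own 5′ to 3′ direction with the core in capitals.
*Nfe2l2*, chr2:75704885-75704913, minus strand: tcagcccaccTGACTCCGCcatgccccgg
*Gclm*, chr3:122245413-122245441, minus strand: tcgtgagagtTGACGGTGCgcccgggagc
*Txnrd1*, chr10:82859104-82859132, minus strand: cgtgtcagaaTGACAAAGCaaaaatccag
*Srxn1*, chr2:152105542-152105570, minus strand: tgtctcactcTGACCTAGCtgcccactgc
*Sod1*, chr16:90220696-90220724, minus strand: ggcctgagtcTGACCACGCccaccttggc
The centre of the core lay 236 bases before the start in *Nfe2l2*, 130 in *Gclm*, 88 in *Txnrd1* and 52 in *Sod1*, and 32 bases after the start in *Srxn1*. The *Txnrd1* match was in 1 of its 3 windows. None of the 5 overlapped TGANTCA, the AP-1 type motif, which reads the same on both strands. It was found in 8.97% of all genes and, among the 8, only in *Srxn1*, elsewhere in its window. The windows of *Keap1*, *Nqo1* and *Sod2* held no TGACNNNGC, which says only that these letters were not in those windows. Both genes with and genes without the core are found among those with higher and with lower estimates below.

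Total counts ranged from 13989588 to 62042255 in control and from 20028624 to 28829756 in miDrp1KO libraries. Levels are given as CPM, the reads of a gene scaled to a common library size, with TMM factors, which places 1 CPM at 13.7 to 60.0 reads, depending on the library. *Dnm1l* itself was at 156, 114 and 140 CPM in control B, C and D and at 70.6, 81.3 and 66.2 in miDrp1KO A, E and F, with no overlap. Its log2 fold change was −0.91 ± 0.18 (SE), with an adjusted p of 0.362 by edgeR and of 0.00302 by DESeq2. Genes of ribosomal RNA took 1.47% to 24.4% of the counts, most in miDrp1KO F and A. The labelled tissue was checked on its markers. The summed level of 10 muscle fibre genes was 148501 to 163902 CPM in control and 71692 to 124399 CPM in miDrp1KO. All 8 adipocyte genes had negative estimates (median −1.07), 4 of them with an unadjusted edgeR p under 0.05, and their summed level was 431 to 694 CPM in control and 285 to 410 in miDrp1KO. The part of either shift in the lower estimates given below was not tested. All 7 slow fibre genes had positive estimates (median 1.47), 0 of them with an unadjusted edgeR p under 0.05. Their summed level was 52.8 to 441 CPM in control and 81.2 to 723 in miDrp1KO, with overlapping groups. In whole muscle, fewer cells of a type and less RNA per cell cannot be told apart.

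None of the 10 genes passed an adjusted p of 0.05 in edgeR's quasi-likelihood test, and 0 of the 7 to which DESeq2 gave an adjusted p passed there. The background was similarly low for edgeR, which called 0.0121% of all genes tested, and DESeq2 called 2.55% of those with an adjusted p. At an unadjusted p under 0.05, edgeR marked *Nqo1* and *Hmox1* among the 10, both higher in miDrp1KO. Of all 16483 genes it tested, it marked 10.9% in either direction (4.68% higher and 6.22% lower). DESeq2 marked *Nqo1* and *Srxn1*, against 7.33% of 26450 genes. That larger set was not filtered on low counts, so the 2 shares are not alike. Estimates were above 0 for 3 genes and below 0 for 7, and their median was −0.07 on the log2 scale, where all genes tested had 0.02 and 52.0% were above 0. The 3 positive estimates, for *Hmox1*, *Srxn1* and *Nqo1*, lay between 0.56 and 0.62, whereas the 7 others lay between −0.30 and −0.01. Of all genes tested, 20.0% had an estimate of 0.5 or more in size. Control and miDrp1KO libraries did not overlap for 1 of the 10 genes, *Hmox1*, and for 18.0% of all genes (7.67% with miDrp1KO higher).

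**Figure D1:**
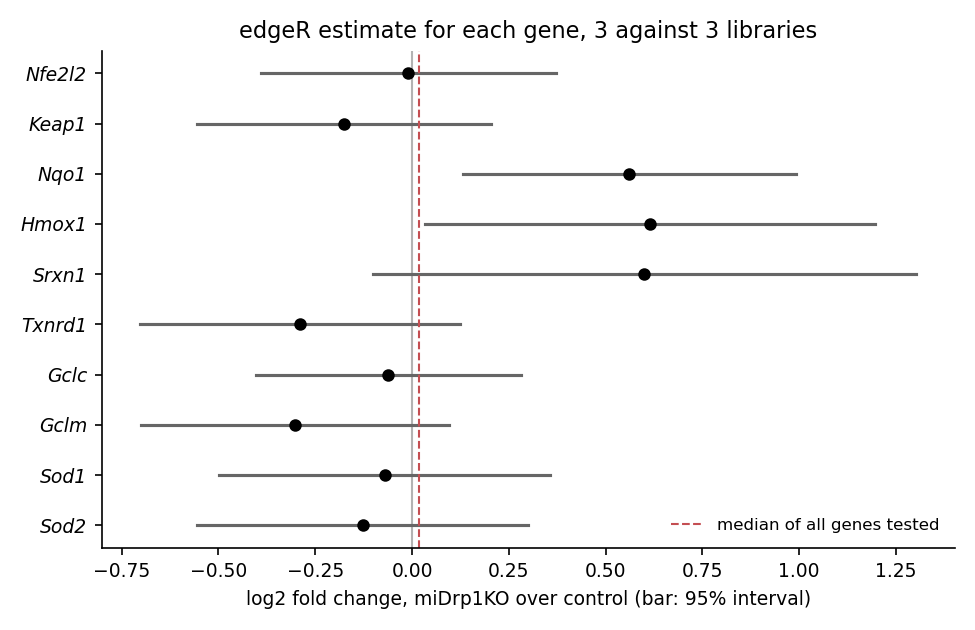
Log2 fold change of miDrp1KO over control for each of the 10 genes (points) with its 95% interval (bars) from edgeR, 3 libraries against 3; the dashed line marks the median of all genes tested, 0.02. The intervals of *Nqo1* and *Hmox1* lie above 0, while the other 8 include it.

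Per kilobase of exon, which allows levels to be set against each other, *Sod1* was the most abundant of the group in control muscle at 125 CPM per kb, followed by *Sod2* at 36.9, *Txnrd1* at 18.6 and *Nfe2l2* at 14.5. *Keap1* stood at 11.7 CPM per kb, *Srxn1* at 8.54, *Nqo1* at 7.96 and *Gclc* at 6.77. *Hmox1*, at 2.52, and *Gclm*, at 1.95, were lowest. Neighbours whose control ranges overlapped, and which therefore have no settled order, were *Txnrd1* with *Nfe2l2*, *Srxn1* with *Nqo1*, *Nqo1* with *Gclc*, and *Hmox1* with *Gclm*. In miDrp1KO muscle the order of the means was the same except that *Srxn1* (13.0 CPM per kb) and *Nqo1* (11.7) stood above *Keap1* (10.4). Lengths were the union of exons of RefSeq-linked transcripts, from 641 bases for *Sod1* to 5861 for *Sod2*.

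**Figure D2:**
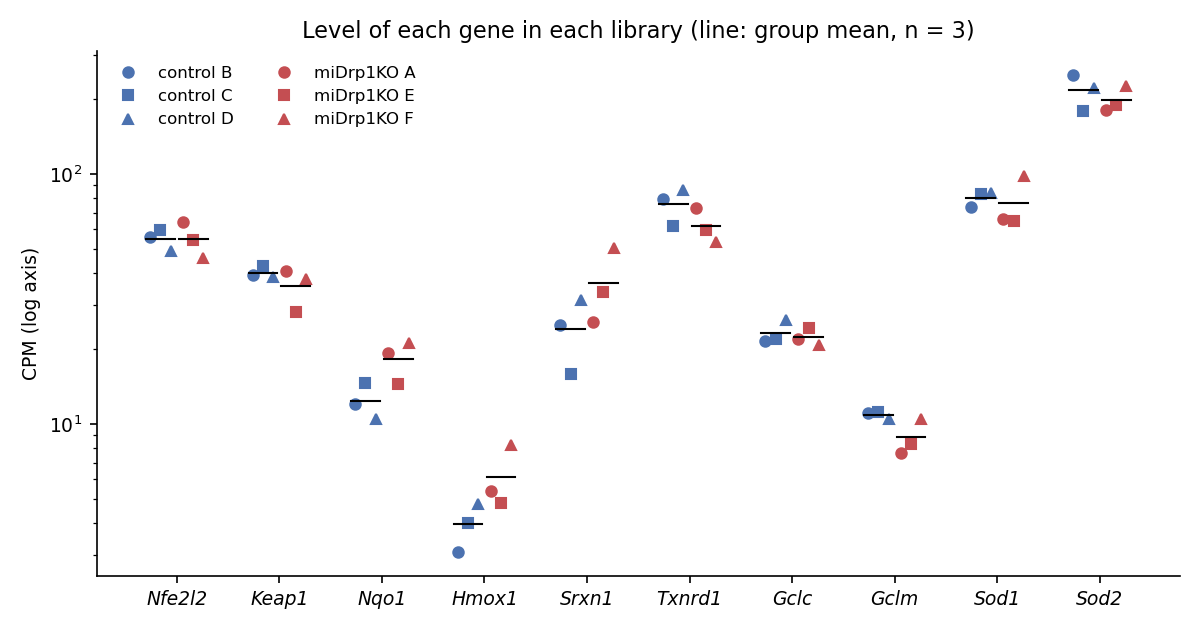
Level of each gene in CPM on a log axis; blue symbols are control B, C and D, red symbols miDrp1KO A, E and F, and lines the group means (n = 3 each). For *Hmox1* the red symbols all lie above the blue ones, by a narrow margin (4.83 against 4.80), and miDrp1KO F is the highest library for *Nqo1*, *Hmox1*, *Srxn1* and *Sod1*.

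*Nfe2l2* (Entrez 18024; GRCm38 chr2:75675513-75704641, minus strand) did not differ detectably between the groups. It was at 56.2, 59.9 and 49.2 CPM in control B, C and D and at 64.0, 54.1 and 45.9 in miDrp1KO A, E and F. The highest and the lowest library were thus both miDrp1KO. The group means were 55.1 ± 5.45 and 54.7 ± 9.03 CPM (SD, n = 3), and the log2 fold change of −0.01 had a 95% interval from −0.39 to 0.37 (edgeR adjusted p = 0.991). *Keap1* (Entrez 50868; chr9:21229730-21239361, minus strand) was at 39.3, 42.7 and 38.7 CPM in control and at 40.7, 28.1 and 38.1 in miDrp1KO. Only miDrp1KO E stood clearly below the other libraries, and the groups overlapped. The log2 fold change was −0.18, with an interval from −0.56 to 0.20 and an edgeR adjusted p of 0.743, and it was −0.03 without miDrp1KO E. It was −0.09 under upper quartile scaling or given the mean log2 CPM of slow fibre genes as a covariate, and −0.32 given the share of ribosomal RNA.

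Among 19 tested regulators and partners of NRF2 other than these, 4 estimates were positive and 15 negative, with a median of −0.11, and none passed the adjusted threshold. *Nfe2l1* (NRF1), a related factor that controls proteasome genes and the most abundant gene of this list by CPM, averaged 586 ± 93.1 CPM in control and 440 ± 67.7 in miDrp1KO (SD, n = 3; log2 fold change −0.41 ± 0.22, SE, or −0.26 without control B), with overlapping groups. *Cul3*, the scaffold of the ligase that KEAP1 serves, was at 414, 445 and 476 CPM in control B, C and D and at 390, 308 and 288 in miDrp1KO A, E and F. *Btrc*, which encodes the β-TrCP subunit of another ligase for NRF2, was at 21.5, 22.6 and 21.9 CPM in control and at 17.0, 16.5 and 16.1 in miDrp1KO. All miDrp1KO libraries were below all control libraries for both genes, as was so for 10.3% of all genes. The log2 fold change was −0.44 ± 0.20 (SE) for *Cul3* and −0.41 ± 0.14 for *Btrc*, with edgeR adjusted p-values of 0.460 and 0.392.

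*Nqo1* (Entrez 18104; chr8:107388225-107403206, minus strand) encodes a quinone reductase that uses NAD(P)H and is a standard readout of NRF2 activity. Its level was 12.0, 14.6 and 10.5 CPM in control B, C and D and 19.1, 14.4 and 21.0 in miDrp1KO A, E and F. Libraries A and F stood above all others, but miDrp1KO E lay just under control C, so the groups overlapped. The means were 12.4 ± 2.06 and 18.2 ± 3.41 CPM (SD, n = 3). This was a log2 fold change of 0.56 ± 0.20 (SE), or 1.48-fold with a 95% interval from 1.09 to 1.99. The unadjusted p was 0.0152 and the adjusted p 0.392 by edgeR over all genes tested, and *Nqo1* ranked 631 by p.

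*Hmox1* (Entrez 15368; chr8:75093621-75100589, plus strand) encodes heme oxygenase 1, the inducible enzyme that opens heme into biliverdin, iron and carbon monoxide. It was among the sparse members, with 55 to 288 reads per library. Levels were 3.08, 4.01 and 4.80 CPM in control B, C and D and 5.40, 4.83 and 8.21 in miDrp1KO A, E and F. Control D and miDrp1KO E all but touched, and miDrp1KO F was well above the rest. Its estimated log2 fold change was 0.62 ± 0.26 (SE; 95% interval 0.03 to 1.20), with an unadjusted p of 0.0400 and an adjusted p of 0.437 by edgeR. Without miDrp1KO F it was 0.37, with an unadjusted p of 0.180. Macrophages also express *Hmox1*. The summed level of 12 macrophage genes was 174, 319 and 182 CPM in control B, C and D and 296, 262 and 262 in miDrp1KO A, E and F. Of the 12, 7 had positive and 5 negative estimates, none was at 0 in all libraries, and 4 (*C1qa*, *C1qb*, *C1qc*, *Lyz2*) were higher with an unadjusted edgeR p under 0.05. The estimates were −0.05 for *Adgre1* and 0.16 for *Csf1r*, which define the lineage. The part of macrophages in the *Hmox1* values was not tested.

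*Srxn1* (Entrez 76650; chr2:152105516-152111376, plus strand) encodes sulfiredoxin, which repairs overoxidized peroxiredoxins. It was at 24.9, 15.8 and 31.3 CPM in control B, C and D and at 25.6, 33.6 and 50.6 in miDrp1KO A, E and F. The spread was wide in both groups: control D was above miDrp1KO A, and miDrp1KO F exceeded every other library. The estimate was 0.60 ± 0.31 on the log2 scale (SE; 95% interval −0.10 to 1.30), with an adjusted p of 0.523 by edgeR and of 0.268 by DESeq2. It was 0.32 without miDrp1KO F, 0.35 without control C, and 0.33 once a score of slow fibre genes was added to the fit. That score, the mean log2 CPM of 7 slow fibre genes, was 5.54, 1.60 and 3.01 in control B, C and D and 2.25, 6.43 and 6.33 in miDrp1KO A, E and F. The part of fibre type in the *Srxn1* values was not tested further.

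**Figure D3:**
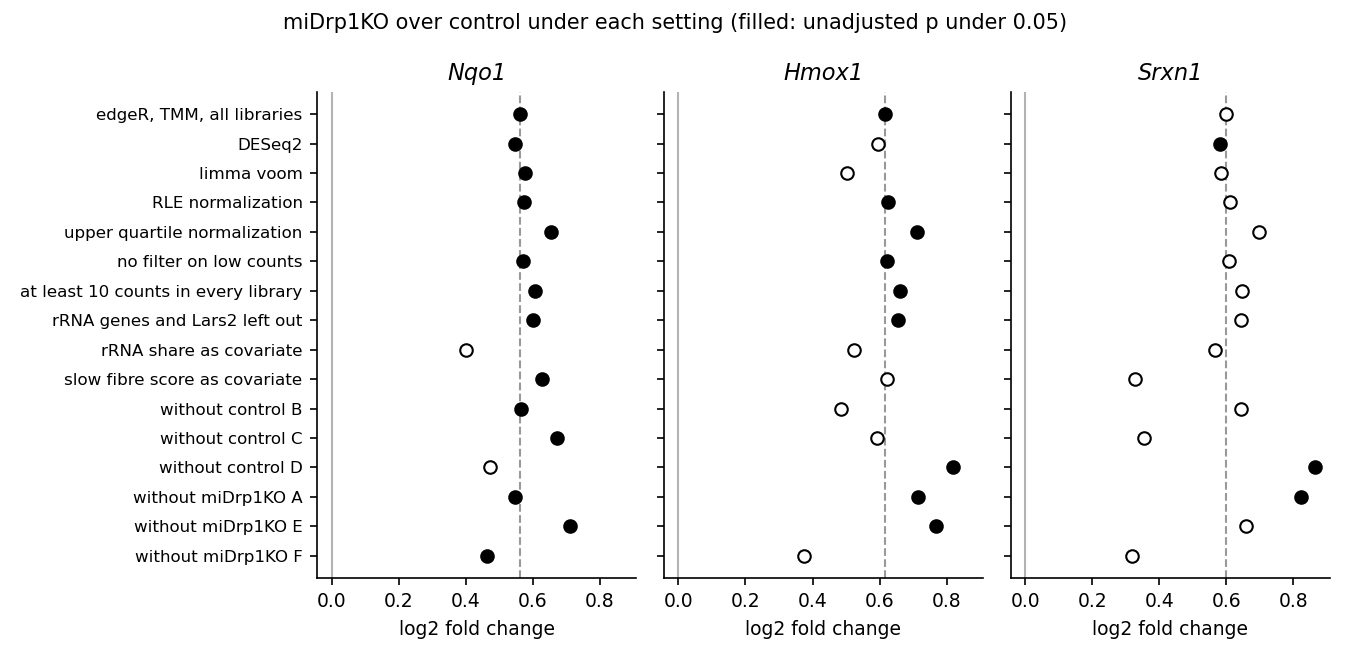
Log2 fold change of *Nqo1*, *Hmox1* and *Srxn1* under edgeR with all libraries (top, and dashed line) and under 15 other settings; filled points have an unadjusted p under 0.05. All values are above 0, from 0.40 to 0.71 for *Nqo1*, 0.37 to 0.82 for *Hmox1* and 0.32 to 0.87 for *Srxn1*, and none passed the adjusted threshold.

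The glutathione synthesis genes and *Txnrd1* had estimates below 0 or near it. *Gclc* and *Gclm* encode the catalytic and the modifier subunit of glutamate-cysteine ligase, which makes the first step of glutathione synthesis. *Gclc* (Entrez 14629; chr9:77754535-77794485, plus strand) was at 21.5, 21.9 and 26.1 CPM in control B, C and D and at 21.8, 24.2 and 20.6 in miDrp1KO A, E and F. All miDrp1KO levels were within or just below the control range. Its log2 fold change of −0.06 had the narrowest interval of the 10 genes, from −0.40 to 0.28 (edgeR adjusted p = 0.917).

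*Gclm* (Entrez 14630; chr3:122245557-122270732, plus strand) was at 11.1, 11.2 and 10.4 CPM in control and at 7.68, 8.33 and 10.5 in miDrp1KO. Libraries A and E were below all others, whereas F lay just above control D. Its log2 fold change was −0.30 ± 0.18 (SE; 95% interval −0.70 to 0.09; edgeR adjusted p = 0.567), and −0.19 without miDrp1KO A. *Gclm* exons overlap *Gm17494* on the opposite strand, which averaged 7.93 CPM with an estimate of 0.36, and *Gm6061*, a transcribed processed pseudogene on the same strand, whose reads strand cannot separate. *Keap1* exons overlap the antisense gene *Gm16754*, at 1.12 CPM. The strand setting of the counting was not given, so reads of genes on opposite strands may not be told apart either. No overlap with exons of another gene was found for the other 8 genes.

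*Txnrd1* (Entrez 50493; chr10:82833951-82897712, plus strand) encodes cytosolic thioredoxin reductase, a selenoenzyme that keeps thioredoxin reduced with NADPH. It was at 79.7, 61.7 and 85.9 CPM in control B, C and D and at 73.0, 59.7 and 53.6 in miDrp1KO A, E and F. The lowest libraries were miDrp1KO F and E, but A lay inside the control range. Its log2 fold change was −0.29 ± 0.19 (SE; 95% interval −0.70 to 0.12; edgeR adjusted p = 0.593). It was −0.17 without control D, −0.17 without miDrp1KO F and −0.44 without control C.

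The superoxide dismutases, the most abundant of the group per length, did not differ detectably. *Sod1* (Entrez 20655; chr16:90220754-90226329, plus strand) was at 73.4, 83.4 and 84.2 CPM in control B, C and D and at 66.3, 64.9 and 98.3 in miDrp1KO A, E and F. Libraries A and E were below every control library and F above every one. The log2 fold change was −0.07, with a 95% interval from −0.50 to 0.36. *Sod2* (Entrez 20656; chr17:13006846-13040063, plus strand) was at 250, 179 and 220 CPM in control (mean 216 ± 35.3, SD, n = 3) and at 180, 189 and 225 in miDrp1KO (198 ± 23.5). The highest and the lowest library were both control. Its log2 fold change was −0.13 (95% interval −0.56 to 0.30), and the edgeR adjusted p-values were 0.924 for *Sod1* and 0.845 for *Sod2*.

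Taken 1 gene at a time, two-sided exact permutation tests of the mean CPM over the 3 against 3 libraries gave p-values from 0.1, for *Hmox1*, to 1, for *Nfe2l2*, and 0.1 is the smallest this design allows. The miDrp1KO libraries differed among themselves. Library F was the highest of all 6 for 4 of the genes (*Nqo1*, *Hmox1*, *Srxn1*, *Sod1*) and the lowest for 3 (*Nfe2l2*, *Gclc*, *Txnrd1*). Library E was the highest for none and the lowest for *Keap1* and *Sod1*. Summed over the 10 genes, however, the level was 494 to 571 CPM in control and 482 to 572 in miDrp1KO libraries. Library F also had the largest share of ribosomal RNA, 24.4%, followed by A with 23.0%. With that share as a covariate, none of the 10 genes had an unadjusted edgeR p under 0.05, and the estimates were 0.40 for *Nqo1* and 0.52 for *Hmox1*. With the slow fibre score in the fit, the estimates were 0.63 for *Nqo1* and 0.62 for *Hmox1*, of which *Nqo1* had an unadjusted p under 0.05. The part of the ribosomal RNA share in these values was not tested further.

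Ratios within a library do not depend on the scaling. They are given with no test, since the pairs were chosen after the levels had been seen. *Nqo1* over *Nfe2l2*, per kb, was 0.523, 0.595 and 0.522 in control B, C and D and 0.732, 0.651 and 1.12 in miDrp1KO A, E and F. *Nqo1* over *Gclm* was 3.91, 4.70 and 3.62 in control and 8.97, 6.22 and 7.23 in miDrp1KO. The 2 groups did not overlap for either ratio, nor for *Hmox1* over *Txnrd1*, which was 0.10 to 0.17 in control and 0.19 to 0.40 in miDrp1KO. These ratios set a gene with a positive estimate over one with a negative estimate. How often other such pairs of genes do not overlap was not computed. The groups overlapped for the 6 other ratios computed, among them *Gclc* over *Gclm* (3.17 to 4.07 and 3.22 to 4.75), *Nfe2l2* over *Keap1* (1.15 to 1.29 and 1.09 to 1.74) and *Sod2* over *Sod1* (0.235 to 0.372 and 0.250 to 0.319).

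The wider redox network was read from 8 lists of 146 genes, of which 139 were tested. Of these, 65 had positive and 74 negative estimates, and 20 had an unadjusted edgeR p under 0.05, 11 higher and 9 lower, against 10.9% of all genes. edgeR called none of them at an adjusted p of 0.05. DESeq2 called *Glrx*, higher, and *Gstm1*, lower, of 67 given an adjusted p, against 2.55% of all genes given one.

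In glutathione synthesis and turnover, 8 of 13 tested genes had positive and 5 negative estimates, with a median of 0.05. *Slc7a11*, the cystine importer that supplies this synthesis, was at 1.61, 1.09 and 1.20 CPM in control B, C and D and at 1.36, 1.99 and 2.64 in miDrp1KO A, E and F, with overlapping groups and an estimate of 0.61, or 0.40 without library F and 0.33 with the slow fibre score in the fit. *Oplah*, which returns 5-oxoproline to glutamate, had an estimate of −0.50 ± 0.19 (SE; edgeR adjusted p = 0.407), or −0.28 without control B. *Chac1*, which degrades glutathione, varied from 27.4 to 116 CPM within control alone.

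Of 20 tested glutathione transferases, which conjugate glutathione to electrophiles, 12 had positive and 8 negative estimates. *Gstm1*, a cytosolic mu-class enzyme, was at 50.8, 56.1 and 50.5 CPM in control B, C and D and at 38.6, 27.6 and 26.7 in miDrp1KO A, E and F. The groups were clearly apart, with a log2 fold change of −0.76 ± 0.18 (SE; adjusted p 0.362 by edgeR and 0.0289 by DESeq2). *Mgst3*, a microsomal enzyme, was at 120, 109 and 97.4 CPM in control and at 114, 141 and 208 in miDrp1KO, and its estimate of 0.51 was 0.25 without library F and 0.31 given the slow fibre score. *Gsta1* and *Gsta2*, known NRF2 targets named here after their values were seen, had estimates of 2.33 ± 0.65 and 1.75 ± 0.67 (SE; adjusted p 0.368 and 0.405 by edgeR) from 1 to 30 and 1 to 15 reads per library. These near-identical copies can share reads, as can members of the *Gstm* family, so the split between copies is uncertain.

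In the thioredoxin, peroxiredoxin and glutaredoxin list, 9 of 22 estimates were positive and 13 negative. *Glrx*, glutaredoxin 1, which removes glutathione from protein thiols, was at 21.1, 16.5 and 19.4 CPM in control B, C and D and at 28.3, 36.5 and 54.6 in miDrp1KO A, E and F. Every miDrp1KO library was above every control library. An estimate of 1.07 ± 0.23 (SE) came with an adjusted p of 0.362 by edgeR and 0.0101 by DESeq2, and was 0.79 without library F. *Txnrd3*, a thioredoxin-glutathione reductase, had an estimate of −0.72 ± 0.24 (adjusted p 0.382 by edgeR) at 2.50 to 5.68 CPM. *Txnip*, the thioredoxin-binding protein and the most abundant of the list by CPM, averaged 853 ± 95.3 CPM in control and 668 ± 67.7 in miDrp1KO (SD, n = 3), with an adjusted p of 0.566.

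For superoxide and peroxide removal beside *Sod1* and *Sod2*, 12 of 15 estimates were positive, with a median of 0.16. *Mt2*, a metallothionein that binds zinc and copper, was at 0.616, 1.38 and 1.68 CPM in control B, C and D and at 9.82, 3.46 and 3.84 in miDrp1KO A, E and F. Its log2 fold change was 2.16 ± 0.51 (SE; edgeR adjusted p = 0.362) and 1.55 without library A. Given the slow fibre score it was 2.61, with an edgeR adjusted p of 0.0143, the 1 alternative of 15 in which *Mt2* was called; DESeq2 gave it no adjusted p. *Gpx4*, which reduces lipid hydroperoxides, was at 77.7, 66.1 and 79.4 CPM in control and at 76.7, 121 and 162 in miDrp1KO. Library A thus lay inside the control range while E and F were above it, and the estimate of 0.69 (edgeR adjusted p = 0.392) was 0.40 when the slow fibre score was in the fit and 0.43 without library F. *Selenow*, a small selenoprotein abundant in muscle, had an estimate of 0.17 ± 0.23 (SE), which was −0.01 without miDrp1KO F, 0.33 without miDrp1KO E and 0.015 given the ribosomal RNA share.

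Among genes of NADPH supply, carbonyl and quinone reduction and export, 7 of 23 estimates were positive and 16 negative. *Idh2*, the mitochondrial NADP-dependent isocitrate dehydrogenase, was at 292 CPM in control B and at 70.0 and 109 in C and D, a wider range than the 117 to 176 of miDrp1KO. *Abcc1*, an exporter of glutathione conjugates, had an estimate of −0.44 ± 0.20 (SE), or −0.22 without miDrp1KO F, and *Ugdh*, which supplies glucuronidation, one of 0.37 ± 0.18 (edgeR adjusted p 0.451 and 0.484). In heme and iron handling, 4 of 13 estimates were positive and 9 negative. *Alas1*, the first enzyme of heme synthesis, had an estimate of −0.63, or −0.29 without control B. *Ncoa4*, the receptor for autophagy of ferritin, had one of −0.35 ± 0.15 (SE) and *Fth1*, ferritin heavy chain, one of −0.17 ± 0.20, or −0.06 without miDrp1KO E (edgeR adjusted p 0.433, 0.436 and 0.788 for the 3 genes).

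Among sources of oxidants, 9 of 14 estimates were positive and 5 negative, with a median of 0.42. *Maob*, a monoamine oxidase of the mitochondrial outer membrane, had an estimate of −0.42 ± 0.15 and *Xdh*, xanthine dehydrogenase, one of −0.30 ± 0.20 (SE; edgeR adjusted p 0.392 and 0.608). The latter was −0.13 without miDrp1KO F and −0.50 without miDrp1KO A.

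**Figure D4:**
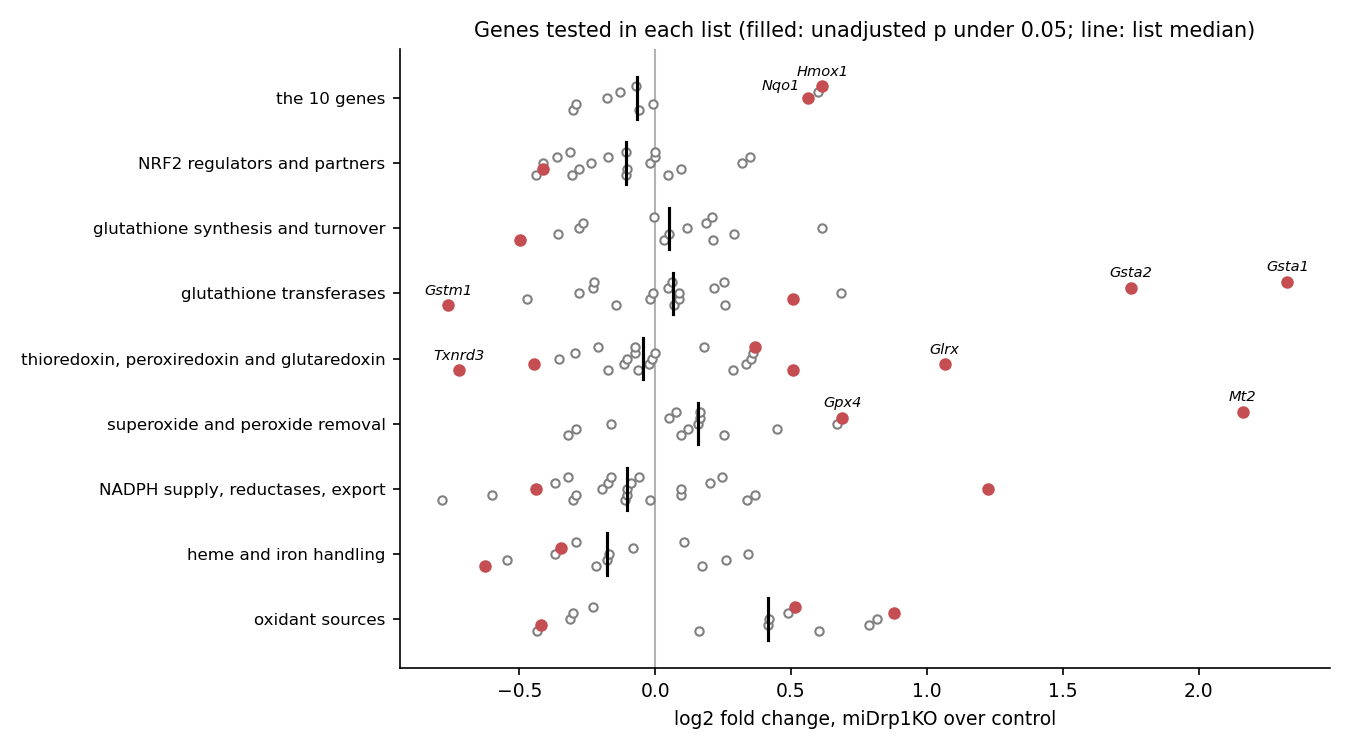
Log2 fold change of miDrp1KO over control (edgeR) for each tested gene of the 10 studied here and of the 8 other redox lists; filled points have an unadjusted p under 0.05 and vertical lines are list medians. The medians run from −0.18 (heme and iron handling) to 0.42 (oxidant sources), and edgeR called no gene shown at an adjusted p of 0.05.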

How the data were processed

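Total RNA of quadriceps was made into libraries with the TruSeq Stranded Total RNA kit and RiboZero Gold. Per the methods of the study, the authors aligned reads to GRCm38 and counted them with Rsubread, and the deposited values are raw counts per gene, 1 file per library. The treatment of reads that match several genes, and which library went into which of the pools sequenced, were not given in the sources used here. The submitters' processing notes name DESeq2 1.30.0.

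Counts were joined by Entrez ID. edgeR 4.0.16 (R 4.3.3; TMM, filterByExpr, robust quasi-likelihood test) was fitted over 16483 genes with Benjamini-Hochberg adjustment over all of them and a threshold of 0.05; scripts were tested on simulated data. No batch term could be fitted. Standard errors are the log2 fold change over the root of F. Animals were single per library, and depth limits precision as given in CPM per read. Alternatives were DESeq2 1.42.0, limma 3.58.1 (voom), RLE and upper quartile scaling, no filter, at least 10 counts in every library, ribosomal RNA genes (29) and *Lars2* left out, ribosomal RNA share or slow fibre score as covariate, and leaving out each library. The common biological coefficient of variation was 0.252.

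The genes named are all 10 members and *Dnm1l*, and in each other list the gene with the highest mean CPM, the 2 genes with the lowest p at a mean of at least 1 CPM and any gene past the adjusted threshold. *Gsta1* and *Gsta2* were named outside this rule, after their values were seen, and marker and overlapping genes are named where their values are used. A gene that the rule names is not reported here. The members and lists were chosen with earlier results of these data known. Coordinates and exons are from GENCODE M21 (GRCm38), promoters from RefSeq (GRCm38.p6).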

Additional observations from a re-analysis of the deposited data

How the results depend on the processing

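No member was called at an adjusted p of 0.05 in any of the 15 alternatives, and the lowest adjusted p was 0.199, for *Srxn1* without miDrp1KO A. *Nqo1*, *Hmox1* and *Srxn1* stayed above 0, and *Keap1*, *Gclm* and *Txnrd1* below 0, in all 15. The estimates near 0 turned sign. *Nfe2l2* was 0.0017 under RLE and 0.076 under upper quartile scaling, 0.032 with at least 10 counts in each library, 0.029 once ribosomal RNA genes and *Lars2* were dropped, and 0.069 given the slow fibre score. *Gclc* was 0.029 under upper quartile scaling and 0.019 given the ribosomal RNA share, and *Sod1* 0.026 under upper quartile scaling. *Chac1* was −0.22 given the ribosomal RNA share, and *Idh2* 0.19 by limma voom and 0.024 under upper quartile scaling. Leaving out 1 library at a time gave −0.11 to 0.12 for *Nfe2l2*, −0.13 to 0.054 for *Gclc*, −0.27 to 0.047 for *Sod1*, −0.27 to 0.0075 for *Sod2*, −0.18 to 0.80 for *Chac1*, −0.012 to 0.33 for *Selenow* and −0.43 to 0.77 for *Idh2*. The cause of these reversals was not tested. Upper quartile scaling shifted the median over all genes upward by 0.090 and that of the 10 members to 0.028.

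The number of genes called, 2 by edgeR, was 113 by DESeq2, 8 with no filter, 1 given the ribosomal RNA share, 4 given the slow fibre score, 1796 without adjustment (2 of them members), and 1 to 7 with 1 library left out, the 7 being without miDrp1KO A. DESeq2 also called *Dnm1l*, *Glrx* and *Gstm1*, and the fit with the slow fibre score called *Mt2*. No paired analysis was possible because control and miDrp1KO libraries share no replicate letter or number. With 3 libraries a group, the 95% interval was narrowest for *Gclc* (−0.40 to 0.28) and widest for *Srxn1* (−0.10 to 1.30), and the estimate of *Hmox1* rests on 55 to 288 reads per library.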
